A study of Homo sapiens with 4 samples.

Results

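The C4-2BER-only promoter peaks are the accessible promoter sites of an enzalutamide-resistant prostate cancer line that lie outside every peak of its parental line. C4-2B is a human prostate adenocarcinoma line, and C4-2BER was selected from it by long culture in enzalutamide, an androgen receptor antagonist. The study describes C4-2BER as neuroendocrine-like. C4-2BER, described as having lost expression of RB1, is a single resistant derivative that was kept in the drug, so that resistance, the drug itself and the drift of the line cannot be told apart. Open DNA was mapped by ATAC-seq, which uses the Tn5 transposase to insert adapters where chromatin can be reached, in 2 libraries of each line grown in the same serum-containing medium. The libraries of a line were merged before peaks were called, so that 1 peak list per line exists, no value has a replicate error and no test between the lines was possible.

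A C4-2BER peak was taken when no base of it overlapped a C4-2B peak and its midpoint lay within 2000 bp of the transcription start site (TSS) of a protein-coding transcript of GENCODE 44 on hg38. Members were thus chosen by the called peak positions of the 2 lists, and their number is a description of those lists. The rule kept 3093 of 118728 C4-2BER peaks. They made up 13.6% of the 22702 C4-2BER promoter peaks, and the other 19609 overlapped a C4-2B peak and are called shared. The reverse set, the C4-2B-only promoter peaks, held 3705 of 23625 C4-2B promoter peaks and is used here as the counterpart. The C4-2B list came from 30.2 M reads and the C4-2BER list from 25.2 M, a ratio of 1.20, as estimated from the background of the peak calls.

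A promoter is the stretch around a TSS on which general transcription factors and RNA polymerase II assemble, and it must be at least partly free of nucleosomes to be used. Many vertebrate promoters lie in CpG islands, stretches rich in G and C in which the CpG dinucleotide has been kept because it is usually unmethylated; in cancer cells a subset of islands, among them those of developmental regulators and of GSTP1, is known to be methylated or held in closed chromatin. ATAC-seq reports that the DNA could be cut and gives no measure of transcription or of DNA methylation.

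The promoters of KHDRBS2, MEIOC and TBX20 are printed because they were among the strongest members with no C4-2B peak within 10 kb. SRRM4, GSTP1 and APC are shown for a neuronal splicing factor and a pair of genes known to be methylated in prostate cancer, and ABCC2 for a promoter poor in CpG. Each line holds 150 bases of the hg38 reference from inside the member peak, read 5′ to 3′ on the strand of the gene, with CpG dinucleotides in capitals.

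KHDRBS2: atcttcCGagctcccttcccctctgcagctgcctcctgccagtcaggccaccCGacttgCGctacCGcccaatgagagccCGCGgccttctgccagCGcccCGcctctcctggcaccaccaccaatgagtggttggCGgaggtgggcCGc
MEIOC: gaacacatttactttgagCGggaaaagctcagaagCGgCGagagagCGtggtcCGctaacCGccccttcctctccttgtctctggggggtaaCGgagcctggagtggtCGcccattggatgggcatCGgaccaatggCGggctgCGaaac
TBX20: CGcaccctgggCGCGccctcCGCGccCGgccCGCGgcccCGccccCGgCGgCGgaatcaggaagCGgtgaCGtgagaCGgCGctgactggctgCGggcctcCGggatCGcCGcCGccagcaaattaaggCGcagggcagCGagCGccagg
SRRM4: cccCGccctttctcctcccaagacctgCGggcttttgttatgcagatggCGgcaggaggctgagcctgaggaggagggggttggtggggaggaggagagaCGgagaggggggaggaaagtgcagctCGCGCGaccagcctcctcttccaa
GSTP1: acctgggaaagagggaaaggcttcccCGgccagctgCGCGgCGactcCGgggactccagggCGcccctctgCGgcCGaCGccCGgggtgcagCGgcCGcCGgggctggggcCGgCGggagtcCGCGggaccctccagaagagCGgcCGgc
APC: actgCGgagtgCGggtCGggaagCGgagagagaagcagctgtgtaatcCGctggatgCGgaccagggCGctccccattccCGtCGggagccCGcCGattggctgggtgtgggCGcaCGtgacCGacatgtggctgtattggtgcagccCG
ABCC2: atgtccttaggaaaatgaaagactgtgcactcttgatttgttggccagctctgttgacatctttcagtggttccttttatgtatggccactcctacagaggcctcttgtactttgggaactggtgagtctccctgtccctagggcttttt

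The stretch of KHDRBS2 lies at chr6:62286226-62286375 on the minus strand, that of MEIOC at chr17:44656186-44656335 on the plus strand and that of TBX20 at chr7:35254101-35254250 on the minus strand. SRRM4 was read at chr12:118981344-118981493, GSTP1 at chr11:67583592-67583741, APC at chr5:112737725-112737874 and ABCC2 at chr10:99782490-99782639, all on the plus strand. All of these stretches end before the annotated TSS and avoid annotated untranslated regions. Those of KHDRBS2, TBX20, GSTP1 and ABCC2 end on the base before it, and all but that of GSTP1 hold the peak summit. TBX20 had 24 CpG dinucleotides in its 150 bases, GSTP1 19 and APC 15, whereas ABCC2 had 0. A GC box (GGGCGG on either strand), the element read by SP and KLF factors, occurred once in each of KHDRBS2, MEIOC, TBX20 and SRRM4. A CCAAT box (CCAAT on either strand), the element read by NFY, occurred 2 times in each of KHDRBS2, MEIOC and APC.

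The 15 strongest members named here with no C4-2B peak within 10 kb lay over annotated start sites and were between 383 and 1322 bp wide. Strength was taken as the −log10 q that macs2 gave the summit within its own list, and the reads are the number of extended reads over the summit. KHDRBS2, an RNA-binding splicing factor of neurons, led them with 102 reads and a −log10 q of 79.4 in a peak of 986 bp at chr6:62285802-62286787, and the nearest C4-2B peak was 15548 bp away. MEIOC, a meiotic regulator that stabilises transcripts in germ cells, had 81 reads and a −log10 q of 63.6 at chr17:44655871-44656571, with the nearest C4-2B peak 32466 bp away. The zinc finger gene ZSCAN1 followed with 77 reads and a −log10 q of 63.4.

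CA10, a catalytically inactive carbonic anhydrase relative found at synapses, had 75 reads and a −log10 q of 63.2. TBX20, a T-box factor of heart development, had 80 reads and a −log10 q of 60.3 in a peak of 870 bp. GALNT13, a glycosyltransferase of neural tissue, had 81 reads and a −log10 q of 59.4 with the nearest C4-2B peak 51462 bp away. KCNK12, a potassium channel gene of the tandem-pore family, stood farthest of the 15 from a C4-2B peak, at 127683 bp, with 81 reads in a peak of 1322 bp. The other members of the 15 were at ZFP3, TLDC2, SPDYA, TPTE, GALM, PARP6, ZKSCAN8P1 and SULF1, and 12 of the 15, all but those of TLDC2, GALM and SULF1, met the CpG island criteria.

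**Figure D1:**
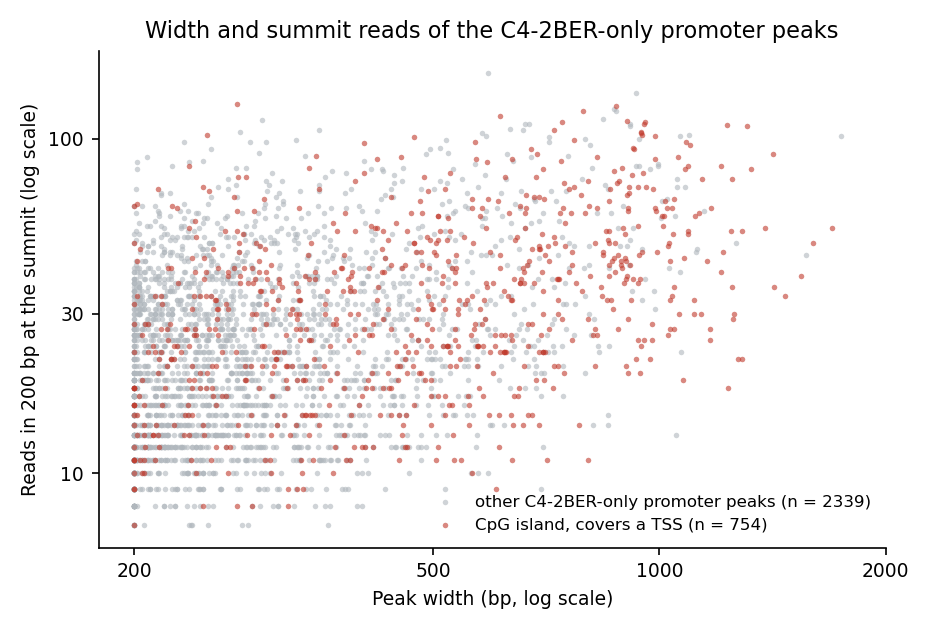
Width in bp (x axis, log scale) and reads over the summit (y axis, log scale) of the 3093 C4-2BER-only promoter peaks, 1 point each. The 754 points in red are peaks that meet the CpG island criteria and cover a TSS; they reach further to the right, with a median width of 476 bp against 285 bp over all members.

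Most members were far weaker than these. Their median width was 285 bp, against 889 bp for the shared promoter peaks and 268 bp for the C4-2B-only ones. The median summit held 24 reads (range 7 to 157), against 84 in shared and 28 in C4-2B-only peaks. The median −log10 q was 6.79, and 997 members (32.2%) had a value of at least 10 and 225 one of at least 30. A read count carries its own error: when the lower 95% Poisson bound of the summit reads was scaled to the C4-2B depth, it reached the number of reads that a C4-2B call would have needed in 2039 members (65.9%) and stayed under it in 1054 (34.1%). The plot of width against summit reads shows that the members with the most reads were not always the widest.

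Members also differed in how far they stood from C4-2B chromatin. The median gap to the nearest C4-2B peak was 1568 bp, with quartiles of 329 and 6047 bp. Of the members 948 (30.7%) lay within 500 bp of a C4-2B peak and 478 lay over 10 kb from any. The rule has sharp edges: the members at ST6GALNAC6, APOL6 and SLC9C1 were separated from a C4-2B peak by 1, 2 and 2 bp, whereas peaks at ARPC5L, PXDN and SUPT5H counted as shared through 2, 3 and 8 bp of overlap. At the other edge the midpoints at PRKCH, FOXN4 and CREB3L1 were 1998, 1996 and 1989 bp from a TSS, and those at FAT3, LRRC36 and SNX8, at 2006, 2008 and 2008 bp, fell outside.

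Genes were then counted through all TSSs within 2000 bp of a member midpoint. Of 19689 protein-coding genes 2693 had at least 1 member, or 13.7%, and 3302 had a C4-2B-only promoter peak, or 16.8%. Both kinds of peak occurred at 656 genes, which were 24.4% of the first group and 19.9% of the second. A further split asked whether the gene had any C4-2B peak that reached within 2000 bp of one of its TSSs. Of the 19689 genes 648, or 3.29%, had a member and no such C4-2B peak, and these were 16.9% of the 3827 genes without a C4-2B promoter peak. The other genes with a member already had an accessible promoter site in C4-2B.

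At the level of peaks, 740 members (23.9%, 95% Wilson interval 22.5 to 25.5%) had only genes of the unmarked kind in reach. The counterpart was 557 of 3705 C4-2B-only peaks (15%, 13.9 to 16.2%), and these intervals do not overlap. The intervals cover the counting of peaks only, since merged libraries give no spread between samples and neighbouring peaks are not independent. The 740 peaks were wider than the other 2353, with medians of 345 and 272 bp, and 59.1% against 36.1% of them covered a TSS. The other 2353 often flanked an existing site: 1182 of them (50.2%) had another C4-2BER peak within 500 bp, against 152 (20.5%) of the 740. Beside a gene that every cell uses, a member can be such a flank. GAPDH, a glycolytic enzyme gene, had a member of 70 reads that stood 264 bp from a C4-2B peak.

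In their distance to the start site the members lay between the shared and the C4-2B-only peaks. The median distance of the midpoint to the nearest TSS was 346 bp, against 148 bp in shared and 893 bp in C4-2B-only promoter peaks. Within 500 bp lay 58.8% of members (57.0 to 60.5%), 75.6% of shared and 30.5% of C4-2B-only peaks (29.0 to 32.0%). A TSS was covered by 41.6% of members (39.9 to 43.4%), by 71.3% of shared and by 15.1% of C4-2B-only peaks (13.9 to 16.2%). Midpoints lay upstream of the nearest TSS in 52.5% of members (50.7 to 54.3%), in 48.3% of shared (47.6 to 49.0%) and in 44.3% of C4-2B-only peaks (42.8 to 46.0%), so that in this measure the members lay beyond both other sets. Summits fell in introns of protein-coding genes in 50.3% of members, between genes in 25%, in 5′ untranslated regions in 16.6%, in coding sequence in 7.31% and in 3′ untranslated regions in 0.808%.

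**Figure D2:**
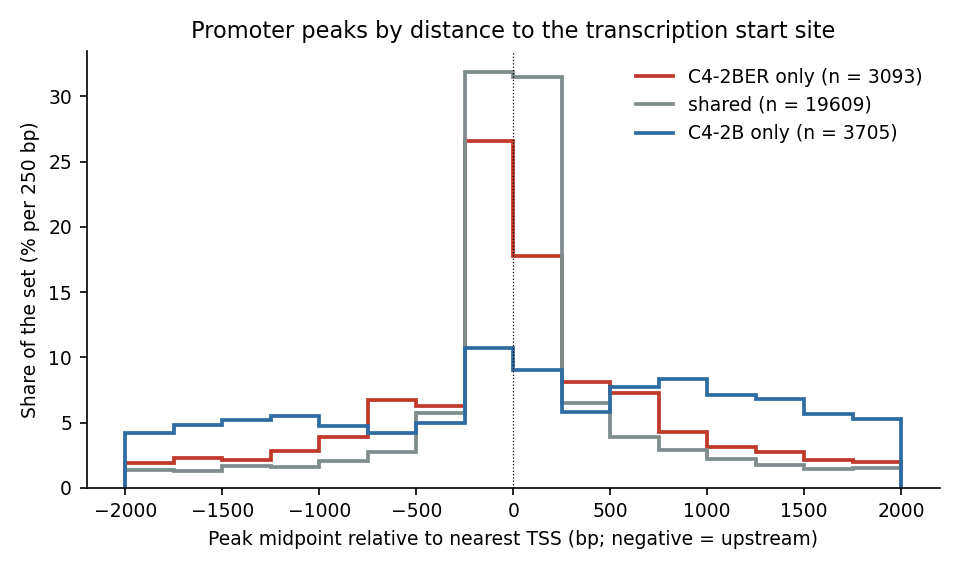
Share of each set of promoter peaks (y axis, percent per 250 bp) by the distance of the peak midpoint from the nearest TSS (x axis, bp, upstream negative). The C4-2BER-only peaks (red) are most frequent at the TSS, as are the shared peaks (grey), whereas the C4-2B-only peaks (blue) are spread more evenly over the window; their medians of absolute distance are 346, 148 and 893 bp.

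Base composition also differed between the members and their counterpart. It was taken in the 500 bp around the midpoint, and a window with a GC content of at least 50% and a ratio of observed to expected CpG of at least 0.6 was counted as CpG island sequence. The median GC content was 59.0% in members, 64.6% in shared and 50.4% in C4-2B-only promoter peaks, and the median CpG ratio was 0.547, 0.761 and 0.253. The island criteria were met by 43.0% of members (41.3 to 44.8%), by 66.5% of shared and by 8.80% of C4-2B-only peaks (7.93 to 9.75%). Neither the peak calls nor the distance to a TSS used the base composition, but CpG islands lie near start sites, so the measures are not separate.

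Both features together were met by 754 members (24.4%, 22.9 to 25.9%) and by 67 C4-2B-only promoter peaks (1.81%, 1.43 to 2.29%). Among shared peaks the share was 59.1%. Of all peaks with a −log10 q of at least 10, both features were met by 42.7% of 997 members and 1.93% of 1399 C4-2B-only promoter peaks. At the other end 1230 members (39.8%) had neither feature, against 2888 C4-2B-only peaks (77.9%). The members with both features were also the strongest, with a median of 31 reads, a median −log10 q of 11.4 and a median gap of 2411 bp to the nearest C4-2B peak. Among the 740 members whose genes had no C4-2B promoter peak 290 (39.2%, 35.7 to 42.8%) had both features, against 14 of the 557 C4-2B-only counterparts (2.51%, 1.5 to 4.17%).

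**Figure D3:**
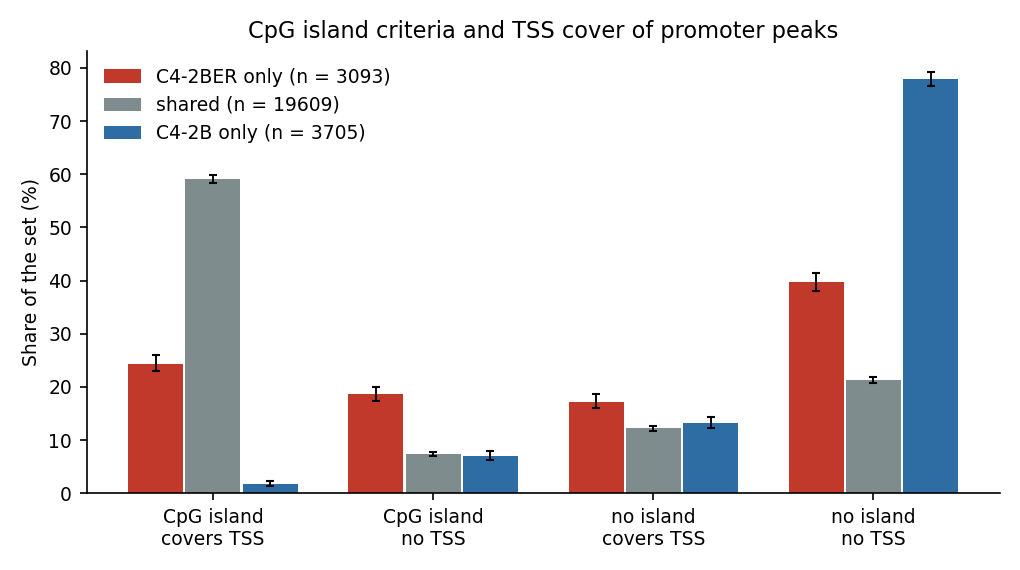
Share of each set of promoter peaks (y axis, percent, with 95% Wilson intervals) that meets or misses the CpG island criteria and that covers or misses a TSS (x axis). The C4-2B-only peaks (blue) have almost no island peaks over a TSS (67 peaks) where the C4-2BER-only peaks (red) have 754, and most of the blue peaks (77.9%) have neither feature.

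Accessibility at the shared peaks moved with the same features. After scaling for depth, the summit reads of C4-2BER exceeded those of the strongest overlapping C4-2B peak in 79.0% of the 11591 shared island peaks that cover a TSS, with a median log2 ratio of 0.15. In the 4173 shared peaks with neither feature C4-2BER was higher in 33.8%, with a median log2 ratio of -0.23. Over all 19609 shared promoter peaks the share was 64.2%, with a median log2 ratio of 0.10. Peaks with only 1 of the features lay under that share. C4-2BER was higher in 52.8% of island peaks without a TSS and in 52.7% of TSS peaks outside islands. Higher summit reads in C4-2BER at start sites in CpG islands were thus also seen at promoters that were open in both lists. With 1 merged list per line, a difference between the lines cannot be told apart from one between their libraries. The part of this shift in the number of members was not tested.

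Short sequence motifs were searched on both strands within 100 bp of the summit. The GC box (GGGCGG) was found in 38.3% of members, 54.4% of shared and 12.3% of C4-2B-only promoter peaks. CCAAT was found in 22.2%, 26.6% and 20.8%. Elements that are common at constitutively used promoters were scarcer in members than in shared peaks, and their shares in C4-2B-only peaks were lower still. The ETS element CCGGAAGT occurred in 0.679% of members, 4.69% of shared and 0.324% of C4-2B-only peaks. The NRF1 element GCGCATGC was found in 0.970%, 3.13% and 0.297%. For the YY1 element AAGATGGCG the shares were 0.226%, 1.66% and 0.027%, and for the CRE TGACGTCA 0.776%, 1.96% and 0.216%. The ETS and YY1 intervals of members and C4-2B-only peaks overlapped. Members and shared peaks were also compared among island peaks that cover a TSS, where both sets are CpG-rich. There the ETS element was present in 1.59% of members (0.913 to 2.76%) and in 7.36% of shared peaks, and the NRF1 element in 1.72% (1.01 to 2.93%) and 4.81%. The GC box, in contrast, was present in 69.8% of these members (66.4 to 72.9%) and in 73.5% of the shared ones.

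Over all peaks, elements of several enhancer-binding factors were rarer in members than in the counterpart, which holds far fewer CpG island peaks. The AP-1 element TGANTCA occurred in 5.40% of members and 9.77% of C4-2B-only promoter peaks, the forkhead element TGTTTAC in 2.68% and 7.48%, AGATAA, read by GATA factors, in 4.88% and 9.99%, and AGAACA, the core of the androgen response element, in 8.76% and 18.3%. The gaps were smaller outside CpG islands, where AP-1 elements were found in 8.11% of members (6.93 to 9.48%) and 10.5% of C4-2B-only peaks (9.52 to 11.6%), forkhead elements in 3.8% and 8.11%, AGATAA in 7.37% and 10.7%, and AGAACA in 12.1% and 19.4%. Shared peaks held these elements, in the same order, in 4.17%, 2.71%, 3.53% and 6.67% over all peaks. Outside islands the shared peaks held them in 8.9%, 5.4%, 7.9% and 12.7%. Inside islands, with 326 C4-2B-only peaks, the AP-1 element was found in 1.81% and 2.15% and the forkhead element in 1.20% and 0.920%. AGATAA occurred there in 1.58% and 3.07%, and AGAACA in 4.29% (3.32 to 5.51%) and 7.36% (5.00 to 10.7%). The intervals of all these pairs overlapped. HNF4, a factor of liver and gut, reads CAAAGTCCA, which was rare everywhere. It occurred in 19 members (0.614%, 0.394 to 0.958%), 39 shared peaks (0.199%) and 12 C4-2B-only peaks (0.324%, 0.185 to 0.565%). The intervals of members and C4-2B-only peaks overlapped, as did those of members and shared peaks outside islands (0.603 to 1.54% and 0.346 to 0.688%). The letters GCGTGAC, a core of the PAX5 element, occurred in 1.16% of members, 2.39% of shared and 0.864% of C4-2B-only peaks, and TGATTNAT, a PBX-HOX element, in 1.78%, 0.918% and 1.84%. A match is a run of letters and no measure of binding.

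**Figure D4:**
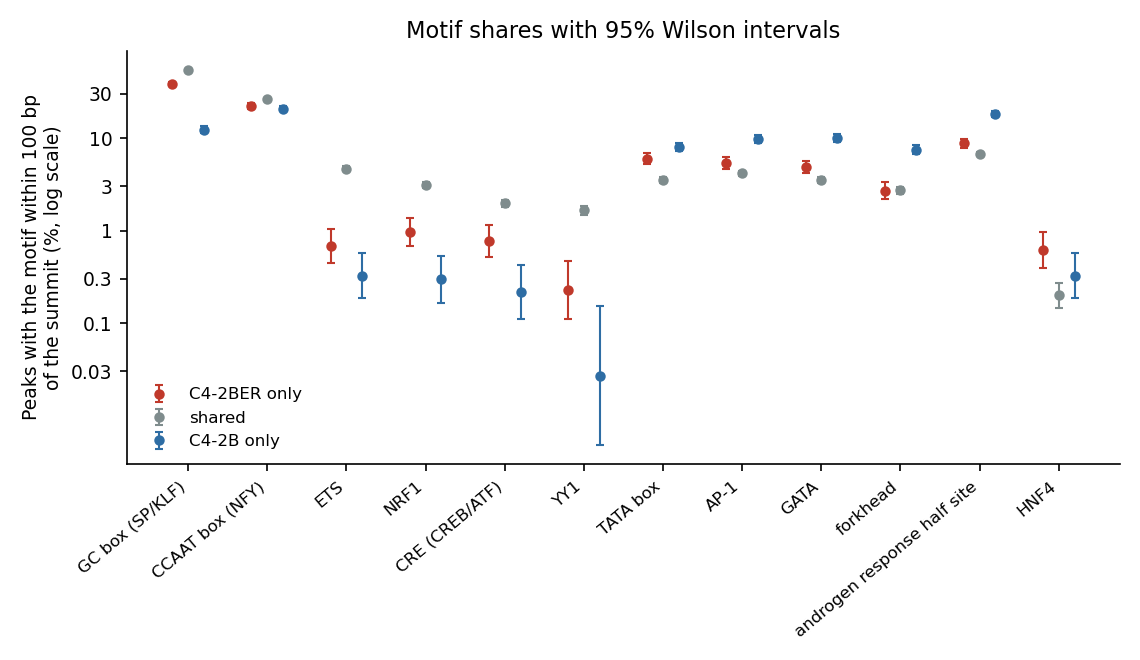
Share of C4-2BER-only (red), shared (grey) and C4-2B-only (blue) promoter peaks that hold each motif within 100 bp of the summit (y axis, percent, log scale; bars are 95% Wilson intervals). Members lie under the shared peaks for the ETS, NRF1, CRE and YY1 elements and under the C4-2B-only peaks for the AP-1, GATA, forkhead and androgen response elements.

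Gene families were compared with the 13.7% of all protein-coding genes that had a member. The shares describe the lists, and gene length and the number of start sites were not accounted for. Among homeobox genes, the transcription factors that set body pattern and cell identity, 64 of 203 had a member (31.5%, 25.5 to 38.2%), and 33 (16.3%) had a C4-2B-only promoter peak, close to the 16.8% over all genes. Of the 46 homeobox genes without a C4-2B promoter peak, 25 (54.4%) had a member, against 16.9% over all such genes. They included NKX2-3, POU6F1, CDX2, PAX3, PAX7 and HOXA5, of which those after POU6F1 were picked after their values were seen. A share above 16.9% was not particular to homeobox genes. It was 60% in WNT genes, 50% in protocadherins and cadherins and 42.9% in C2H2 zinc finger genes. The 3827 genes behind the 16.9% also held 351 olfactory receptors, with a share of 0.570%, and 103 keratin genes, with 3.88%.

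NKX2-5, a heart factor, had the highest −log10 q among homeobox genes, 67.1, with 105 reads over its TSS, and a C4-2B peak lay 149 bp away. NKX2-3, a gut and spleen factor, had 85 reads and a −log10 q of 60.2 with the nearest C4-2B peak 7558 bp away. PAX6, an eye and neural factor, had 117 reads and a −log10 q of 51.7, 260 bp from a C4-2B peak. PAX8, a thyroid and kidney factor, had 71 reads at the strongest of its 3 members. POU6F1 had 76 reads in a peak of 1248 bp. Homeobox members were thus found both beside accessible sites and at promoters without one.

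Other lineage regulators were counted in the same way. Of 51 basic helix-loop-helix lineage factors 17 had a member (33.3%, 22.0 to 47.0%), while 11 of the 51 (21.6%) had a C4-2B-only peak. Of the 17 factors without a C4-2B promoter peak 8 (47.1%) had a member, against 16.9% over all such genes. TCF15, a factor of somite formation, had 77 reads, HAND1, a heart and placenta factor, 87 reads, and HEYL, a Notch target, 68 reads with the nearest C4-2B peak 4956 bp away. Of 87 forkhead, SOX, GATA and T-box genes 22 had a member (25.3%, 17.3 to 35.3%) and 17 (19.5%) a C4-2B-only promoter peak. Beside TBX20 these included SOX5, with 60 reads, TBX10, with 33, FOXC2, a factor of vessel and mesoderm development, with 32, and GATA4.

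GATA4, a regulator of heart, liver and gut development, had 5 members and no C4-2B promoter peak. The strongest had 38 reads and a −log10 q of 17.5 with its midpoint at -2 bp from a TSS, and the other 4 had between 12 and 24 reads. The gaps to the nearest C4-2B peak were 8998 to 20570 bp. Such runs were uncommon: of 2561 genes that were nearest to a member, 2128 had 1, 356 had 2 and 77 had 3 or more. PDE4D, a cyclic AMP phosphodiesterase gene with many start sites, had the most, 7, but none of its peaks exceeded 30 reads. EDNRB, the endothelin B receptor gene, had 4 members, all 59101 to 86469 bp from the nearest C4-2B peak. FAT3, an atypical cadherin gene, also had 4, the strongest with 33 reads over a TSS.

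Neuronal genes were represented by several lists. Voltage-gated and related ion channels had a member at 43 of 139 genes (30.9%, 23.9 to 39.1%), but a C4-2B-only promoter peak was nearly as frequent, at 40 (28.8%). Beside KCNK12, KCNJ8, an ATP-sensitive potassium channel gene, had 42 reads with the nearest C4-2B peak 22571 bp away. Neurotransmitter receptors had a member at 33 of 137 genes (24.1%, 17.7 to 31.9%) and a C4-2B-only promoter peak at 24 (17.5%). A promoter peak was present at 102 of these genes in C4-2B and at 100 in C4-2BER, so the list held no net gain of genes with one. GABRQ, a GABA receptor subunit gene, had 44 reads, SSTR1, a somatostatin receptor gene, 32 reads, and GRIK1, a kainate receptor gene, 24 reads with the nearest C4-2B peak 89504 bp away. Synaptic vesicle and release genes had a member at 21 of 99 (21.2%, 14.3 to 30.3%), among them NLGN1, a postsynaptic adhesion gene, with 41 reads in a peak of 856 bp, and C4-2B-only promoter peaks were about as frequent there, at 20.2%.

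Of 29 genes of neuronal and STAR-family RNA-binding proteins 9 had a member (31.0%, 17.3 to 49.2%). Beside KHDRBS2 these were led by SRRM4, the neuronal microexon splicing factor, with 100 reads and a −log10 q of 66.8 at chr12:118981040-118981836, 933 bp from a C4-2B peak. CELF3 had 74 reads, ELAVL3 81 reads and ELAVL4 21 reads, the last 19602 bp from a C4-2B peak. In this list too C4-2B-only promoter peaks were frequent, at 8 genes (27.6%).

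Of 36 neuroendocrine markers and regulators 8 had a member (22.2%, 11.7 to 38.1%), and all 8 already had a C4-2B promoter peak, while 6 of the 36 (16.7%) had a C4-2B-only one. After SRRM4 and CELF3 came POU3F2, a neural POU factor, with 55 reads at -1294 bp, NKX2-1, a factor of lung and thyroid, with 33 reads, and ENO2, the neuronal enolase gene, with 35 reads. INSM1, NCAM1 and CALCA completed the list. CHGA and SYP, the classical markers, had no member and were looked up after the values were seen. The interval of this list holds the 13.7% of all genes.

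Adhesion and matrix genes also had members more often than the background. Of 110 protocadherins and cadherins 32 had one (29.1%, 21.4 to 38.2%) against 17 with a C4-2B-only promoter peak (15.5%). Of the 30 without a C4-2B promoter peak 15 (50%) had a member, against 16.9% over all such genes. PCDH17 had 89 reads at -1893 bp, and DSC3, a desmosomal cadherin gene, had 54 reads in a peak of 1695 bp. The beta protocadherins formed a run on chromosome 5, where 6 of them and PCDHGA1 had 7 members between 141051374 and 141330571. Collagens, laminins and matrix glycoproteins had a member at 28 of 92 genes (30.4%, 22.0 to 40.5%), but the same number had a C4-2B-only promoter peak. COL25A1, a collagen of neurons, had 98 reads and a −log10 q of 73.5, and the nidogen genes NID1 and NID2, whose products link basement membrane networks, had 71 and 62 reads with no C4-2B promoter peak.

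Signalling ligands and their inhibitors followed. Of 52 WNT ligands, Frizzled receptors and secreted regulators 17 had a member (32.7%, 21.5 to 46.2%) and 10 (19.2%) a C4-2B-only promoter peak. WIF1, a secreted WNT inhibitor gene, had 48 reads over its TSS and stood 19876 bp from a C4-2B peak. WNT10A had 34 reads and WNT3 41. Of 30 FGF ligands and receptors 8 had a member (26.7%) and 7 (23.3%) a C4-2B-only promoter peak. FGF2, a fibroblast growth factor gene, had 17 reads. FGF12, whose product binds sodium channels, had 29 reads in a peak of 1254 bp, 34030 bp from a C4-2B peak. Of 46 TGF-beta and BMP ligands and inhibitors 10 had a member (21.7%) and 7 (15.2%) a C4-2B-only promoter peak. GREM1, a BMP antagonist gene, had 14 reads, 17624 bp from a C4-2B peak.

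The list with the largest share held 29 genes reported as hypermethylated in prostate cancer, compiled from general knowledge with earlier results of these data known. Of these 11 had a member (37.9%, 22.7 to 56%), among them APC, CCND2, CD44, CDH13, DKK3, EDNRB, GPX3, GSTP1, HOXD3 and RARB, and 6 (20.7%) had a C4-2B-only promoter peak. GSTP1, a glutathione transferase gene, had 54 reads and a −log10 q of 17.2 at chr11:67583494-67583912, over its TSS and 487 bp from a C4-2B peak. RARB, a retinoic acid receptor gene, had 66 reads in a peak of 1024 bp that stood 247 bp from a C4-2B peak. The member at APC, a WNT pathway suppressor, had 40 reads at one of its promoters, 11823 bp from a C4-2B peak, while another APC promoter had a C4-2B peak. Only CDH13, EDNRB and HOXD3 of the 11 had no C4-2B promoter peak. DNA methylation was not measured in these data. The rank of this list describes these data and is not independent evidence.

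Germ-cell genes gave an uneven picture. Of 62 meiosis and germ-cell genes 11 had a member (17.7%, 10.2 to 29.0%), and 7 of these had no C4-2B promoter peak. The 7 were 30.4% of the 23 genes of the list without a C4-2B promoter peak, against 16.9% over all such genes. In the opposite direction 9 had a C4-2B-only promoter peak (14.5%), 6 of them with no C4-2BER promoter peak, and 39 genes had a promoter peak in each line. Beside MEIOC, SMC1B, a meiotic cohesin gene that shares its promoter peak with RIBC2, was in reach of 66 reads, MOV10L1, a piRNA pathway helicase gene, had 65 reads and BOLL, an RNA-binding gene of spermatogenesis, 44. Cancer-testis antigen genes, by contrast, had a member at 7 of 161 (4.35%, 2.12 to 8.70%) and a C4-2B-only promoter peak at 12 (7.45%), led by SSX3 with 42 reads, and 126 of the list had no C4-2B promoter peak.

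Replication-dependent histone genes had a member at 11 of 73 (15.1%), near the background, while 10 genes (13.7%) had a C4-2B-only promoter peak. Of the 21 histone genes without a C4-2B promoter peak 8 (38.1%) had a member, against 16.9% over all such genes. H2BC3 and H3C3, neighbours on chromosome 6, shared 1 member of 102 reads and 1066 bp, and H4C4 had 90 reads and H2BC6 63. Histone genes resemble each other, so reads can be placed at the wrong copy. Of 559 C2H2 zinc finger genes only 52 (9.30%, 7.16 to 12%) had a member and 37 (6.62%) a C4-2B-only promoter peak. Of the 49 without a C4-2B promoter peak 21 had a member (42.9%), against 16.9% over all such genes. ZNF681 had 106 reads, ZNF727 66 and ZNF491 81.

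Immune and surface genes were near or under the background. CD40, a receptor of the TNF family, had 50 reads and a −log10 q of 36.1, 10265 bp from the nearest C4-2B peak, and EDA2R, of the same family, 58 reads, although just 4 of the 46 TNF ligands and receptors had a member (8.70%) and 9 a C4-2B-only promoter peak (19.6%). Chemokines, interleukins and their receptors had a member at 18 of 152 (11.8%) and a C4-2B-only promoter peak at 34 (22.4%). CX3CL1 had 81 reads and CXCL3 43, the latter 54107 bp from a C4-2B peak. Interferon response genes had a member at 7 of 48 (14.6%), with MX1 at 24 reads, and a C4-2B-only promoter peak at 13 (27.1%). Solute carriers had a member at 55 of 380 (14.5%) and a C4-2B-only promoter peak at 85 (22.4%), and SLC46A3, a lysosomal transporter gene, had 112 reads and a −log10 q of 85.3.

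Metabolic genes of liver and gut gave small counts. Of 21 UDP-glucuronosyltransferases 4 had a member (19.1%) and 2 (9.52%) a C4-2B-only promoter peak. UGT1A1, which conjugates bilirubin, had 26 reads. Of 45 ABC transporters 7 had a member (15.6%), near the background, and 9 (20%) a C4-2B-only promoter peak. ABCC2, a canalicular export pump gene, had 38 reads, 27428 bp from a C4-2B peak, and ABCG8, a sterol transporter gene, 21 reads. CYP7B1, an oxysterol hydroxylase gene, had 27 reads. Of 55 cytochrome P450 genes 6 had a member (10.9%) and 8 (14.55%) a C4-2B-only promoter peak. Keratins and keratin-associated genes (6 of 149, 4.03%) and olfactory receptors (8 of 390, 2.05%) were the least represented of the 38 lists. A C4-2B-only promoter peak was present at 21 (14.1%) and 18 (4.62%) of their genes.

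**Figure D5:**
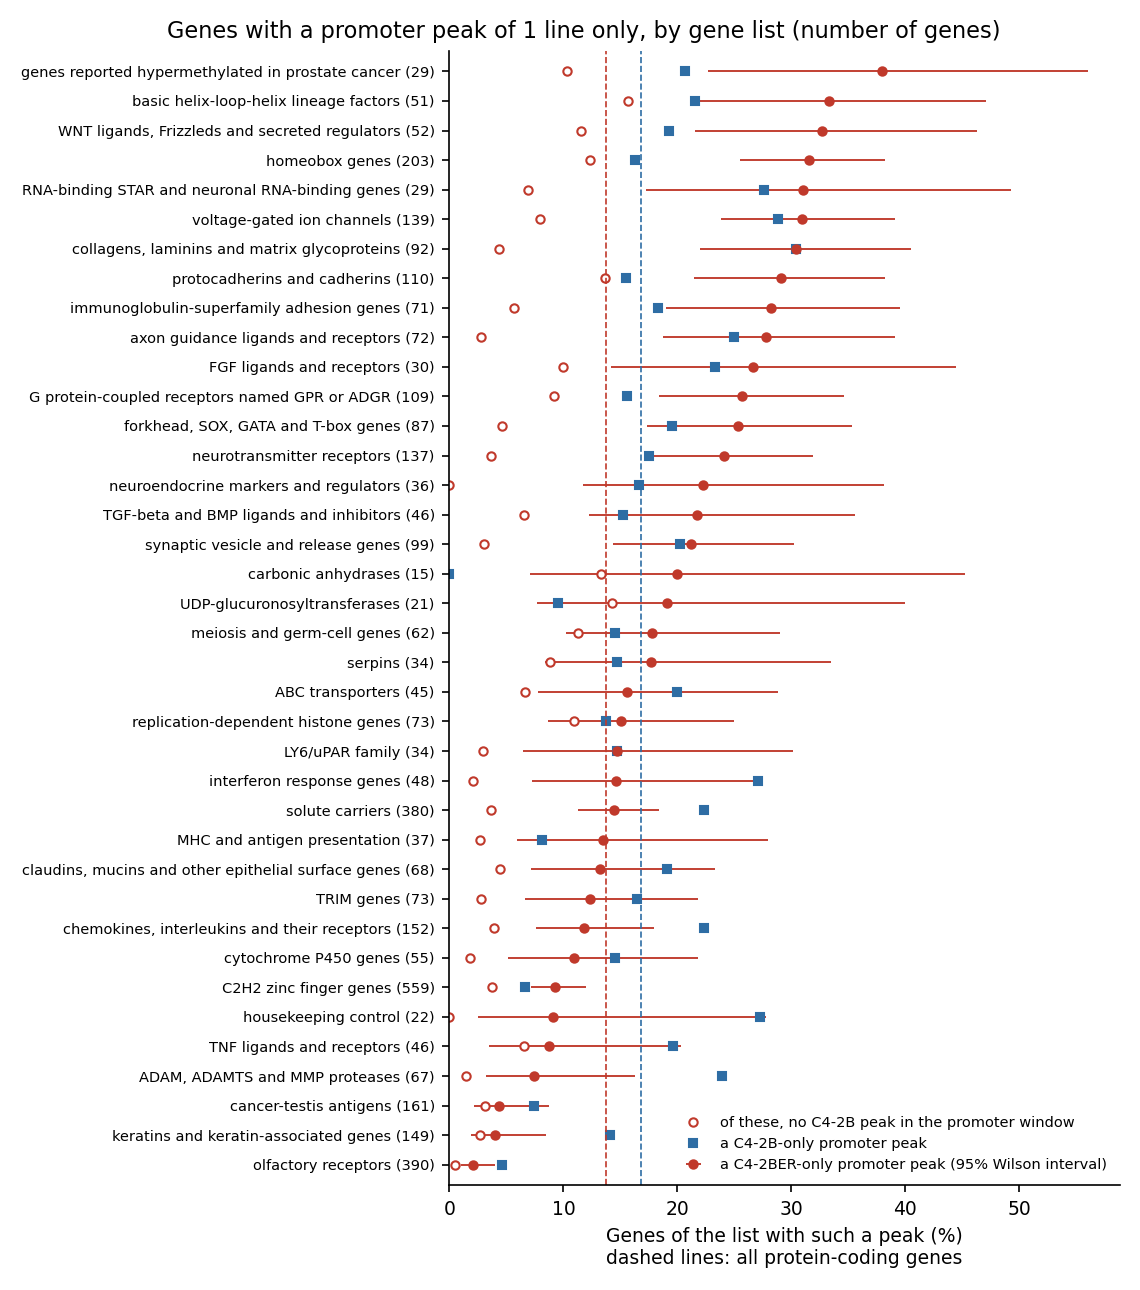
Share of the genes of each of 38 lists (rows, with the number of genes) that had a C4-2BER-only promoter peak (filled red, with 95% Wilson interval), that had one and no C4-2B peak in the promoter window (open red) or that had a C4-2B-only promoter peak (blue squares). The dashed lines mark 13.7% and 16.8% of all protein-coding genes; homeobox genes (31.5%) lie right of the red line while their blue square (16.3%) lies near the blue line.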

How the data were processed

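ATAC-seq was performed on 2 libraries each of C4-2B and C4-2BER. Per the study's methods, nuclei were isolated on an iodixanol gradient and transposed with Nextera Tn5. Adapters were cut from the read pairs, which were mapped to hg38 by Bowtie2 and rid of poor alignments and duplicates. The submitters' processing notes also name FastQC, Picard, MACS2 and bedtools 2.17. The authors merged the replicates of a line and called peaks with macs2 without a fragment model, reads being shifted and extended to 200 bp, and deposited 1 narrowPeak list per line. Any difference between the libraries of a line is therefore not visible. The deposited fold enrichment is a ratio, made by macs2, of summit reads to local background. The deposited −log10 p is the unadjusted Poisson value of the summit and the deposited −log10 q its adjustment within the list; neither is comparable as an effect size between lines. The deposited summit offset, a distance in bp and thus of another kind of unit, gave the summit position.

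The members and the gene lists were chosen with earlier results of these data known. Each interval was kept once with its strongest summit. All intervals end inside their hg38 chromosome. Summit reads and background were solved from the deposited fold (reads plus 1 over background plus 1) and the Poisson −log10 p, with 100% of summits solved in either list; on simulated summits 100% were recovered. The lowest background, 1.87 (C4-2BER) and 2.24 (C4-2B) reads per 200 bp, gave the depths if macs2 used its genome size of 2700000000 bp. TSSs came from protein-coding transcripts of GENCODE 44 (19689 genes). Named genes were the 15 members of highest −log10 q with no C4-2B peak within 10 kb, up to 5 per list by −log10 q, genes with 3 or more members, the 5 widest members, those next to a threshold and the largest groups of neighbouring genes, with some genes and sequences not reported here and replaced by the next; others are said to be picked afterwards, and a list's remaining members are given by name only. Shares carry 95% Wilson intervals, which cover counting error only. No test between the lines was run. Python 3.11.15 with numpy 2.4.6, pandas 2.3.3, scipy 1.17.1 and pysam 0.24.0 was used. The column of macs2 scores was not used.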

Additional observations from a re-analysis of the deposited data

How the results depend on the processing

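The values rest on 1 merged peak list per line, so that no replicate could be left out and no spread between samples is known. No paired analysis was possible because neither line has a value per library, so no test was run. Depth limits the weak members, since sites under 7 summit reads are not in the C4-2BER list. A count is said here to have moved when it changed by over 1.5 times, and a share or median when it left its 95% interval. Scaling the C4-2B reads to the C4-2BER depth gave 3103 members and 2701 genes and by this measure moved none of the 8 main values (number of members, number of genes, median GC, and shares that met the CpG island criteria, covered a TSS, did both, lay upstream, or had only genes without a C4-2B promoter peak). This scaling left 149418 of the 149676 C4-2B peaks, so the members could hardly change and it says little about the effect of depth. With equal numbers of peaks there were 4002 members and 3383 genes, both within that tolerance, and the share at genes without a C4-2B promoter peak moved to 29.3%. Using the summit moved only the upstream share, to 55.2%.

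Stricter peaks gave larger CpG island and TSS shares. At a −log10 q of at least 5 there were 2089 members and 1941 genes, the median GC was 60.2%, the island share 46.1%, the TSS share 49.2%, the share with both 29.9% and the upstream share 54.6%. At 10 there were 997 members and 1002 genes, and the values were 62.6%, 55.1%, 64.9%, 42.7% and 56.9%, with 31.1% at genes without a C4-2B promoter peak. Counting a C4-2B peak within 500 bp as shared gave 2146 members and 1857 genes, a TSS share of 49.2%, 28.7% with both, 54.8% upstream and 34.4% at unmarked genes. Within 10 kb it left 478 members and 405 genes, with a median GC of 54.5%, an island share of 37.9%, a TSS share of 52.3%, 28.0% with both and 59.0% at unmarked genes. Requiring 50% reciprocal overlap for sharing gave 5133 members and 4244 genes, 48.5% upstream and 14.4% at unmarked genes.

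A window of 1000 bp gave 2502 members and 2225 genes, a median GC of 60.2%, an island share of 48.0%, a TSS share of 51.4%, 30.1% with both and 33.2% at unmarked genes. At 500 bp there were 1818 members and 1670 genes, with 62.4%, 53.6%, 70.7%, 41.4% and 46.3%, and 55.8% upstream. With 1 canonical TSS per gene there were 2111 members and 1944 genes, and the values were 61.4%, 52.6%, 38.4%, 26.5%, 41.5% and 49.5%. In these settings C4-2B promoter peaks were also sought only in the smaller window or at the canonical TSS. More genes could then count as unmarked, so those shares are not like the main one. The share of members with both features exceeded that of the C4-2B-only peaks under every one of the 11 alternatives, which for the latter was at most 9.63%, under reciprocal overlap; this pair of shares was added to the alternatives after the data were seen. Among the 38 gene lists, the share with a member stayed above that of all genes under all 11 alternatives in 13, among them ion channels (1.77 to 3.50 times) and the prostate cancer methylation list (2.56 to 6.71 times). Homeobox genes fell from 2.31 to 0.958 times, WNT genes from 2.39 to 0.935 times and basic helix-loop-helix factors from 2.44 to 0.953 times when a C4-2B peak within 10 kb counted as shared, where 4, 1 and 1 genes remained. The causes of these shifts were not tested.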

Other observations

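Members were not spread evenly over the chromosomes. On the X chromosome 142 of 737 C4-2BER promoter peaks were members (19.3%, 95% Wilson interval 16.6 to 22.3%), against 13.6% over all chromosomes, while 89 of 697 C4-2B promoter peaks there were C4-2B-only (12.8%), against 15.7% over all chromosomes. On X the share of members was thus above and that of C4-2B-only peaks below its background. Chromosome 7 followed among the autosomes with 176 of 1067 (16.5%, 14.4 to 18.8%), where 199 of 1113 C4-2B promoter peaks were C4-2B-only (17.9%, 15.7 to 20.2%). Both shares were above their background there. Copy number was not measured in these data.

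Genes with members also lay side by side. When nearest genes whose start sites were within 100 kb of each other were joined, 695 genes fell into 284 groups and 1866 stood alone. The largest group held 15 genes and 20 members on chromosome 19, between 48552172 and 49210734, and ran from SULT2B1, a sterol sulfotransferase gene, over FUT2 and CGB2 to TRPM4. On chromosome 16 the alpha-globin locus formed a group of 5 genes, MPG, HBZ, HBM, HBA2 and HBA1, with 5 members; HBA1 and HBA2 are near-identical copies, so the placement of reads between them is uncertain. Gene density was not accounted for in these counts.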
